A study of Macaca mulatta with 10 samples.

Results

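Of the 10 sequenced libraries of sorted Tr1 cells, 4 held at least 8000 genes with 1 or more counts, and these 4 were selected on that number of genes found. They came from monkeys 13EP12 and 13EP8 of Cohort B and monkeys 13EP5 and 15CP1 of Cohort C, with 1 library per monkey. Tr1 cells are a regulatory CD4 T cell subset that restrains immune responses largely through interleukin-10. They were sorted here as CD4+Cd49b+Lag3+ cells, where CD49b is the integrin α2 chain (gene ITGA2) and LAG-3 an inhibitory receptor that binds MHC class II. They differ from the classical regulatory T cells, whose identity rests on the transcription factor FOXP3.

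All monkeys were rhesus macaques (Macaca mulatta), made diabetic with streptozotocin and given an intraportal islet allograft from a donor with mismatched MHC class I and 1 matched DRB allele. All received transient immunosuppression with an anti-CD40 antibody, rapamycin, a soluble TNF receptor and an anti-IL-6 receptor antibody. Cohort C monkeys additionally received infusions of apoptotic donor leukocytes (ADLs), and Cohort B monkeys did not. According to the labels, blood was taken when animals were sacrificed, for rejection (Cohort B) or at the study end point (Cohort C), but the study's source data list all 4 monkeys as free of rejection and its text states that 15CP1 was not sacrificed at that end point. The cells had been frozen, thawed and rested overnight before sorting. The reads of these macaque cells were mapped to the human genome, so genes carry human symbols.

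The 4 libraries are given throughout in the order 13EP12, 13EP8, 13EP5 and 15CP1. They held 1191070, 1392157, 3341503 and 5895609 counts in genes, and 8900, 10225, 11873 and 15068 genes were found. The library just inside the limit was that of 13EP12 with 8900 genes, and the first outside it was that of Cohort B monkey 15CP6 with 4848; the other 5 held between 465 and 3348 genes. Both Cohort C libraries were deeper than both Cohort B libraries, so cohort and depth cannot be told apart in these 4. The detection floor used here, 3 counts in a library, equals 2.52, 2.15, 0.898 and 0.509 CPM (counts scaled to a common total per library).

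**Figure D1:**
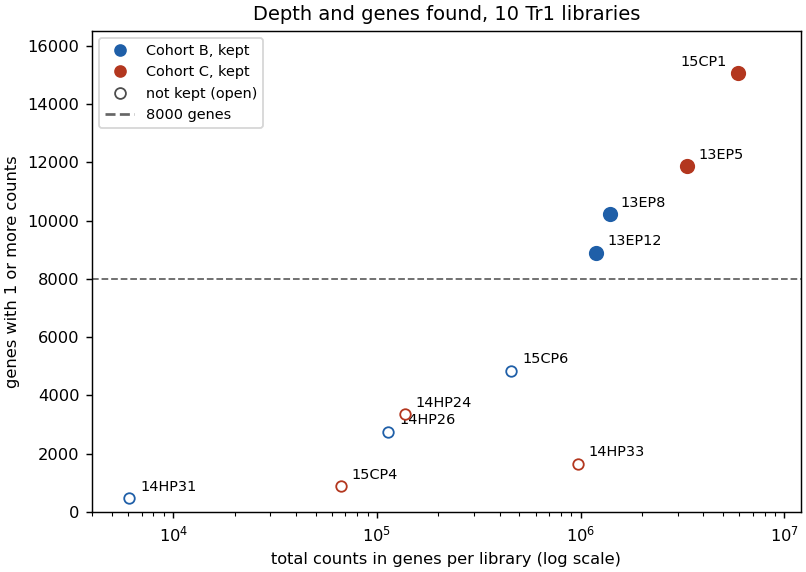
Total counts in genes (x axis, log scale) against genes with 1 or more counts (y axis) for all 10 libraries, with Cohort B in blue, Cohort C in red and the libraries that were not kept as open circles. The 4 kept libraries lie above the dashed line at 8000 genes, between 8900 and 15068 genes, and the next library lies at 4848.

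The transcriptome shared by all 4 libraries held 6878 genes. Of the 16488 genes found in at least 1 of the 4, this was 41.7%, while 3050 were found in exactly 3, 2844 in 2 and 3716 in 1. Of the genes found in 1 library, 2463 were found in the deepest one, that of 15CP1. The shared genes carried nearly all of the signal, at 97.0%, 95.3%, 94.0% and 95.1% of the counts. After every library was thinned to the 1191070 counts of the shallowest, 6772 genes were found in all 4, and 8900, 10159, 11424 and 13353 genes in each, so the order of the libraries by genes found was the same at equal depth. Of the shared genes, the 6 shallow libraries held between 333 and 3360.

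Some genes of moderate level were missing from single libraries. In 13EP12, 140 genes had no count although each of the other 3 libraries held them at 20 CPM or more, a level that equals 23.8 counts in that library. In 13EP8 there were 55 such genes, in 13EP5 there were 10 and in 15CP1 there were 0. Among those missing in 13EP12 was EIF3J, a subunit of a translation initiation factor, with 0, 256, 647 and 577 counts.

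The largest share of reads in each of the 4 libraries fell on MALAT1, a long non-coding RNA of the nucleus, at 39755, 36972, 28355 and 38367 CPM. It took 3.98% of the counts of 13EP12 (95% Wilson interval 3.94 to 4.01%) and 2.84% of the counts of 13EP5 (2.82 to 2.85%), intervals that cover counting error alone. CPM here measures the share of reads, which grows with transcript length, so the order of genes by CPM is an order of read shares. By mean log2(CPM + 1) MTRNR2L1 followed with 22991, 28215, 24124 and 25021 CPM, at ranks 4, 2, 2 and 4 within the libraries. It is a nuclear gene nearly identical to mitochondrial ribosomal RNA, and its count, like those of MTRNR2L2 and MTRNR2L3, is uncertain because near-identical copies can share reads. The 10 MTRNR2L genes together took between 3.09% and 3.90% of the counts in these 4 libraries, beside 15.6% to 87.0% in the other 6.

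Of the 30 genes with the highest mean log2(CPM + 1), 5 were small RNA genes: RN7SK, which restrains transcription elongation, RN7SL1 and RN7SL2 of the signal recognition particle, MIR7641-2 and the spliceosomal RNU2-2P. The count of MIR7641-2 is uncertain, as its FPKM was listed at 0 in all 4 libraries. A further 2 were ribosomal RNAs and 3 were MTRNR2L genes. The protein-coding genes among them served protein synthesis (EEF1A1, TPT1, RPS6, RPL14, PABPC1), the actin cytoskeleton (ACTB, MYH9, MACF1, AHNAK), RNA processing (DDX5, SRRM2, HNRNPA2B1, MBNL1, DDX3X, SFPQ, PRRC2C) and protein folding (HSP90AB1). JUN, an immediate early transcription factor, and ETS1, a transcription factor that lymphocytes need, were also among the 30. The plot of these 30 genes by library shows EEF1A1, AHNAK and DDX5 at nearly the same level in all 4, HSP90AB1 spread from 1046 to 4221 CPM, and most small RNAs farther apart.

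**Figure D2:**
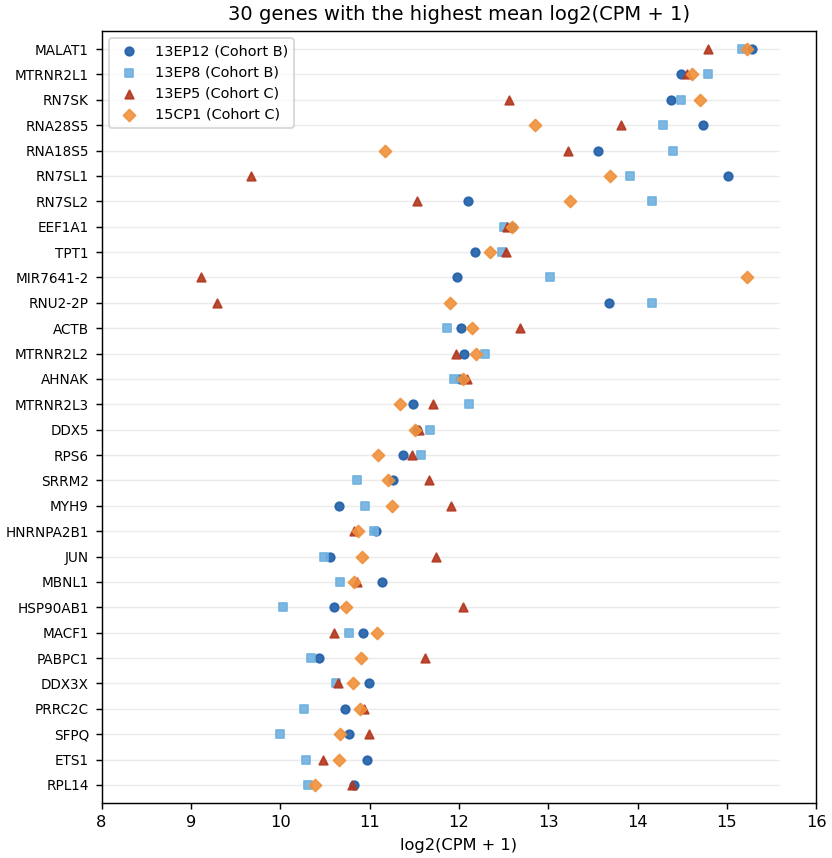
Level of the 30 genes with the highest mean log2(CPM + 1) (x axis) in each of the 4 libraries, with Cohort B in blue and Cohort C in red or orange. EEF1A1 and AHNAK lie close together in all 4, while RN7SL1, MIR7641-2 and RNU2-2P reach from 555 to 38352 CPM with the lowest value in 13EP5.

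EEF1A1, which brings aminoacyl-tRNA to the ribosome, held ranks 8, 10, 7 and 8 by CPM. ACTB, β-actin, held ranks 12, 16, 5 and 11. Per length, on the ranks by FPKM within a library with small and ribosomal RNA genes left out, RPS6 led with ranks 2, 2, 1 and 1. MALAT1 had FPKM ranks 3, 4, 10 and 3, ACTB 6, 8, 2 and 5, and TMSB4X, the actin-binding thymosin β4, 4, 5, 5 and 8. AHNAK, a very long gene, had FPKM ranks 209, 181, 250 and 215, and MACF1 ranks between 297 and 547. FPKM levels are given here only as ranks within a library, since the scale of this column differed in 13EP5, where RPS6 stood at 35484 FPKM beside 4348, 5662 and 4648 in the other 3.

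Taking the 100 genes with the highest CPM in each library, 51 were among the 100 of all 4 and 168 among those of at least 1. At 1000 genes, 573 were shared by all 4. Across the 16488 genes found in any of the 4, Spearman's rho of log2(CPM + 1) between 2 libraries was lowest for the 2 Cohort B libraries, 0.67, and highest for the 2 Cohort C libraries, 0.86, with the 4 pairs across cohorts between 0.71 and 0.77. Pearson's r ran from 0.72 to 0.89 in the same way. Genes are not independent replicates and the pairs share libraries, so these values are a description. At equal depth the 2 values were 0.67 and 0.86. Among the 1985 genes with a mean of at least 100 CPM, between 65.3% (13EP12 with 13EP5) and 84.5% (13EP8 with 15CP1) differed by less than 2-fold.

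Of the 10 genes with the steadiest level over the 4 monkeys, EEF1B2, EEF1A1, RPL27A and RPL27 belong to the translation machinery. EEF1B2, the exchange factor of EEF1A1, had 271, 272, 264 and 268 CPM, an SD of 0.021 on the log2(CPM + 1) scale beside a median SD of 0.50 over 1978 genes with a mean of at least 100 CPM (date-like names left out). EEF1A1 had 6178, 5822, 5949 and 6177 CPM, and RPL27A 955, 894, 900 and 885 CPM. BTG1, an antiproliferative gene abundant in resting lymphocytes, had 858, 901, 825 and 885 CPM. The other 6 of the 10 steadiest were YY1AP1, AHNAK, RPL27, EEA1, KDM2A and HNRNPH1.

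The 10 most variable of these genes differed mainly by zeros or by 1 library. RPL7, JCHAIN, PTPRS and EIF3J were at 0 in at least 1 Cohort B library. PTPRS, JCHAIN and UGCG were highest in 13EP5, at 424, 433 and 406 CPM, and the small nucleolar RNAs SNORA72, SNORA6 and SNORA64 lowest there, at 0.599, 5.69 and 5.99 CPM. CXCL8, a neutrophil-attracting chemokine made by myeloid cells, had 165, 465, 4.19 and 285 CPM.

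Of the sort markers, CD4 was found in all 4 libraries, with 338, 94, 772 and 766 counts. ITGA2, which encodes CD49b, had 25, 2, 4 and 37 counts, so that in 13EP8 it did not pass the floor of 3 counts. LAG3 had 10, 0, 16 and 12 counts and was not detected in 13EP8, where a level of up to 2.15 CPM would go unseen. ITGB1, the β1 chain that pairs with CD49b, had 971, 1088, 1062 and 1305 CPM. The label as Tr1 cells rests on surface protein. ITGA2 mRNA was at or near the floor in 13EP8 and 13EP5, LAG3 mRNA was missing in 13EP8, and neither passed 37 counts in any of the 4.

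Of 22 genes of the T cell receptor complex and its proximal signaling, 21 were found in all 4 libraries. The exception was THEMIS, found with 16 counts in 15CP1. Their summed level was 4610, 4619, 4043 and 4907 CPM. PTPRC, the leukocyte phosphatase CD45, was the highest of the list at 1648, 1512, 1097 and 1511 CPM, and PLCG1, the phospholipase downstream of the receptor, had 273, 370, 361 and 357 CPM. CD3D, a chain of the receptor complex, and LCK, the kinase that starts receptor signaling, were named for their role after their values had been seen. CD3D lay between 98.4 and 124 CPM, and LCK had 186, 180, 202 and 196 CPM.

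Among 28 transcription factors of helper and Tr1 cells, 23 were found in all 4 libraries. MAF, a driver of IL-10 in Tr1 cells, had 217, 228, 242 and 182 CPM. PRDM1 (Blimp-1), another inducer of IL-10, had 50.4, 149, 176 and 161 CPM. AHR, a ligand-activated factor of Tr1 cells, had 13.4, 79.0, 95.8 and 87.0 CPM, with 13EP12 lowest in both. TCF7, LEF1 and SATB1, factors of naive and memory T cells, were abundant, SATB1 at 519, 751, 598 and 683 CPM. IRF4, BATF, EOMES and EGR2 were among the factors missing from at least 1 library. EOMES, linked to cytotoxic Tr1 cells, had 14, 0, 60 and 125 counts.

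**Figure D3:**
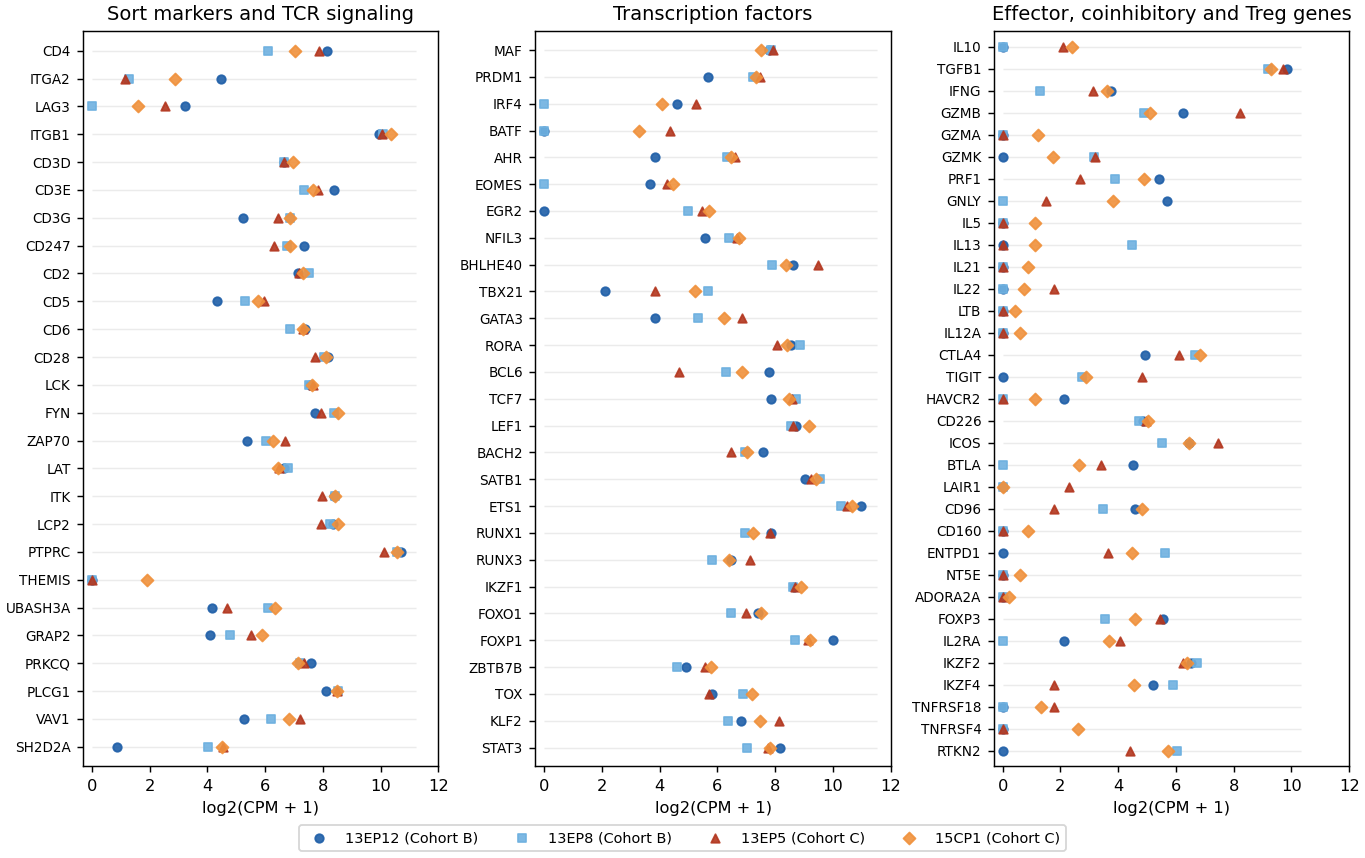
Levels on the log2(CPM + 1) scale (x axes) of sort markers and T cell receptor signaling genes, of transcription factors, and of effector, coinhibitory and regulatory T cell genes with a count in at least 1 library. Points at 0 are libraries without a count; LCK, the steadiest of the receptor signaling genes, lies at nearly 1 level in all 4 libraries, UBASH3A and VAV1 are spread more widely, and LAG3, IL10 and THEMIS have libraries at 0.

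Effector molecules were sparse. Of 20 effector genes, 4 were found in all 4 libraries: TGFB1, IFNG, GZMB and PRF1. IL10, the defining cytokine of Tr1 cells, had 0, 0, 11 and 25 counts, or 3.29 and 4.24 CPM in the Cohort C libraries, beside floors of 2.52 and 2.15 CPM in the Cohort B libraries. TGFB1, the suppressive cytokine TGF-β1, was by far the most abundant at 924, 576, 840 and 628 CPM. GZMB, the cytotoxic protease granzyme B, had 75.6, 28.7, 296 and 33.1 CPM, with 13EP5 highest, and PRF1, the pore-forming perforin, 42.0, 13.6, 5.39 and 28.8 CPM, with 13EP5 lowest. IL2, IL4, IL17A, TNF, LTA and EBI3 were listed at 0 in all 4.

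A count of 0 could not always be read as absence of the transcript. A list of 25 widely used genes was drawn up after the counts had been seen, from 3 parts of the human genome that hold alternative or duplicated copies: the MHC region, the leukocyte receptor complex and the pseudoautosomal region. Of these, 14 were at 0 in all 10 libraries, among them DDX39B, CSNK2B and PSMB8, and 19 had at most 3 counts in each of the 4 libraries. At least 1 of the 4 held a count of 11 of the 25, and of 16488 of all 26484 gene rows. Chosen this way, the list cannot show how common such zeros are in these parts. Other genes of the MHC region were counted, among them HLA-B with 137, 218, 685 and 2671 counts and HLA-DRA with 335, 389, 1914 and 1728. RPS18, a ribosomal protein gene of the MHC region, had 0, 0, 0 and 1 counts, while RPS6 held 2185 to 3043 CPM. TNF, LTA, LTB, TAP1 and TAP2 lie in the MHC region too, so only their listing at 0 or near 0 is given here. PDCD1, which encodes PD-1, was listed at 0 in all 4 libraries.

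Of 13 coinhibitory and adenosine pathway genes, CTLA4, CD226, ICOS and CD96 were found in all 4. CTLA4, an inhibitory receptor of activated and regulatory T cells, had 29.4, 99.8, 68.2 and 113 CPM, and ICOS, a costimulator of IL-10 producing cells, 86.5, 44.5, 175 and 87.4 CPM. TIGIT, an inhibitory receptor, had 0, 8, 92 and 38 counts, and ENTPD1, the ectonucleotidase CD39, 0, 67, 39 and 125. HAVCR2, LAIR1, BTLA, CD160, NT5E and ADORA2A had at most 32 counts in any of the 4.

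FOXP3 was found in all 4 libraries at 46.2, 10.8, 43.1 and 23.2 CPM. IKZF2, the Helios factor of regulatory T cells, had 90.7, 105, 75.1 and 82.4 CPM. IKZF4, its relative Eos, had 36.1, 58.2, 2.39 and 22.6 CPM, and IL2RA, the IL-2 receptor chain CD25, 4, 0, 53 and 70 counts. TNFRSF18, TNFRSF4 and RTKN2 were each missing from at least 1 library, and LRRC32 was listed at 0. Bulk libraries cannot show whether the cells with FOXP3 or Helios RNA were those with RNA of the Tr1 markers, and in 13EP8 neither Tr1 marker reached 3 counts.

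Of 22 memory, homing and cytokine receptor genes, 19 were found in all 4. IL7R, the receptor of the survival cytokine IL-7, had 597, 621, 513 and 648 CPM. CD44, an activation and memory marker, had 665, 496, 519 and 534 CPM, and ITGA4, a homing integrin, 662, 649, 773 and 767 CPM. CXCR3, a receptor of inflammatory chemokines, was not found in 13EP12, nor was CXCR5 of follicular cells.

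Markers of cells other than CD4 T cells were measured in all 4 libraries. In bulk samples, fewer cells of a type and less RNA per cell cannot be told apart. The summed level of 10 monocyte markers was 1299, 1230, 166 and 1182 CPM, of which VCAN alone had 927, 779, 55.1 and 749. S100A8 and S100A9, abundant in monocytes and neutrophils, were at 0 in 13EP5, and S100A12 was at 0 in all 4. Granulocyte markers summed to 160, 241, 13.5 and 247 CPM. CD8 T and NK cell markers summed to 181, 103, 30.8 and 77.2 CPM with NCR1 and XCL1 at 0, B cell markers to 54.6, 99.1, 103 and 89.2 CPM, and all 8 erythroid markers were at 0. Platelet markers summed to 66.3, 7.18, 355 and 4.75 CPM. In 13EP5 the platelet genes were led by TUBB1 with 398 counts, PPBP with 285, NRGN with 249 and ITGA2B with 166, and GP9, GP6 and CLEC1B were listed at 0. GP6, like NCR1 and LILRA4, lies in the leukocyte receptor complex, where a 0 cannot be read as absence. Platelets are known to carry CD49b, the sorted integrin.

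A group of genes known from plasmacytoid dendritic cells, which carry CD4, stood out in 13EP5. IRF8 had 171, 78.3, 1711 and 97.2 CPM, CCDC50 170, 129, 1813 and 167 CPM, TCF4, the master regulator of these cells, 24.3, 32.3, 826 and 69.9 CPM, and BCL11A 35.3, 126, 545 and 27.1 CPM. All were highest in 13EP5, while 15CP1 lay between the Cohort B values for IRF8 and CCDC50 and below both for BCL11A. Over 19 genes of this cell type, listed after the counts had been seen, the sum was 706, 555, 6904 and 612 CPM, with 9 found in all 4 libraries. The list was not uniform. TLR7 had 70.5, 11.5, 36.5 and 3.39 CPM and SLC15A4 63.0, 30.2, 39.5 and 45.6 CPM, both highest in 13EP12. Of the defining surface markers, CLEC4C had 17 counts in 13EP5 and 0 elsewhere, LILRA4 had 32 in 15CP1 and 0 elsewhere, and IL3RA, a gene of the pseudoautosomal region, was at 0 in all 4. Of the dendritic cell markers, FLT3 had 4, 26, 300 and 55 counts and the list summed to 94.0, 32.3, 110 and 30.5 CPM. MHC class II genes moved alongside, at 1117, 946, 3501 and 1132 CPM in sum, with 7 of the 18 listed at 0 in all 4. CD74, the class II invariant chain, had 803, 565, 2692 and 712 CPM, and HLA-DRA 281, 279, 573 and 293 CPM.

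**Figure D4:**
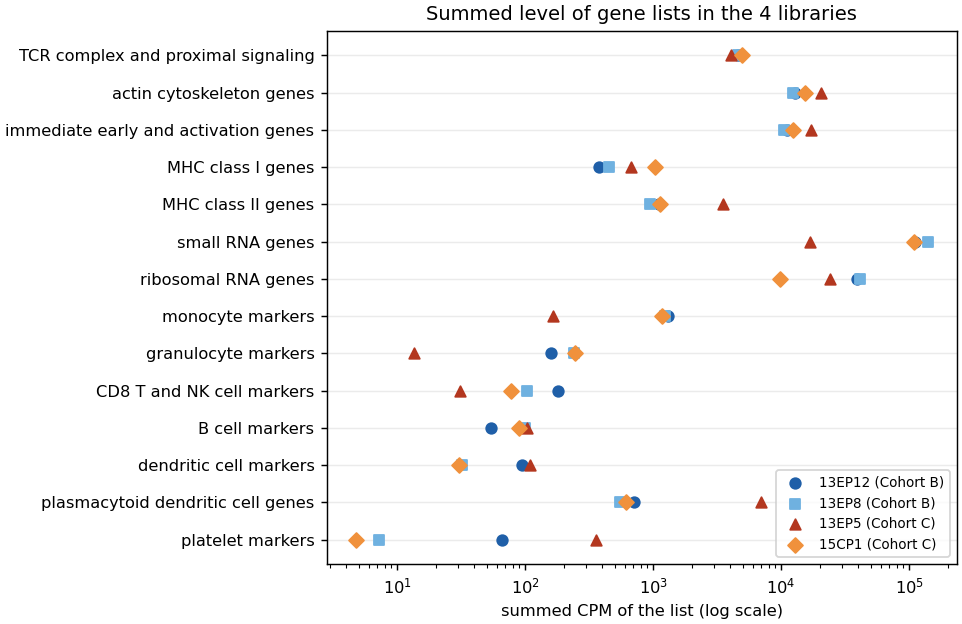
Summed CPM (x axis, log scale) of 14 gene lists in the 4 libraries, with Cohort B in blue and Cohort C in red or orange. T cell receptor signaling lies between 4043 and 4907 CPM in all 4, whereas 13EP5 has the lowest small RNA, monocyte and granulocyte sums and the highest MHC class II, plasmacytoid dendritic cell and platelet sums.

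What still differed between the cohorts was then examined with the 2 Cohort C libraries against the 2 Cohort B libraries (edgeR's quasi-likelihood test on counts with TMM normalization). Under the criterion of the study's RNA-seq methods, an unadjusted p below 0.01 with a change of 1.5-fold or more, 117 of 13274 genes tested were called. Of these, 68 genes were called higher in Cohort C, 0.512% of those tested, and 49 genes lower, 0.369%. A p threshold of 0.01 alone would pass 133 of 13274 genes with no difference between the groups. The study's statistics section also names an adjusted threshold of 0.05, with a fold cutoff in limma. After Benjamini-Hochberg adjustment of the edgeR test, 1 gene lay below 0.05, 0.00753% of those tested, and 698 had an unadjusted p under 0.05. Over all genes tested, the libraries had a median log2 fold change of 0.32, or 0.17 with RLE normalization, so values of single lists are set against it below. It was 0.11 over the genes with a mean of at least 10 CPM and 0.08 with cohorts at 0 put at their bound. Among the genes with a mean of at least 10 CPM, 25.6% were higher in both Cohort C libraries and 12.6% lower.

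The calls turned largely on 1 library. Of the 68 genes called higher, 64 had their highest CPM in 13EP5, and of the 49 called lower, 38 had their lowest there. Without 13EP5, 43 genes were called, 6 higher and 37 lower, and these included 3 of the 68 and 29 of the 49. The direction of the calls also depended on the scaling, with 58.1% of calls higher in Cohort C by TMM and 44.4% by RLE.

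The 1 gene past the adjusted threshold was RPL7, a protein of the large ribosomal subunit. It had 0, 0, 834 and 1220 counts, so that Cohort C was at least 97.7-fold higher with 3 counts put in each Cohort B library (adjusted p = 0.0251, edgeR). It was also at 0 in all 6 shallow libraries, those of Cohort C included, while RPL27A held nearly the same CPM in all 4 deep ones. RPL7 has many near-identical processed copies, so its count is uncertain. With RLE normalization, with stricter filters on low counts, with limma-voom or at equal depth no gene passed, and the unadjusted p of RPL7 stayed at 0.000318 or below.

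HMGB1, a chromatin protein that also acts as an alarm signal, had 17.6, 52.4, 745 and 439 CPM (edgeR, adjusted p = 0.252). It too has processed copies that can share reads. RNF19B, an E3 ubiquitin ligase, had 26.0, 18.0, 240 and 158 CPM, but also 21 counts in the shallow Cohort B library of 14HP26 and 29 in that of 15CP6. With all 10 libraries its log2 fold change was 1.08 (edgeR, unadjusted p = 0.595). NSA2, a factor of ribosome assembly, had 16.8, 27.3, 294 and 139 CPM. With all 10 libraries HMGB1 and NSA2 no longer passed either. Their log2 fold changes were then 3.86 (edgeR, unadjusted p = 0.0779) and 3.17 (edgeR, unadjusted p = 0.152). In HMGB1, RNF19B and NSA2 both Cohort C libraries lay above both Cohort B libraries, a pattern that 30.1% of all genes tested showed in CPM, and 8.99% showed its reverse.

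Also among the 10 genes with the smallest p, FZD1 (a WNT receptor), FMNL2 (an actin-nucleating formin), SCN9A (a sodium channel) and RAB15 (a small GTPase) were at 0 in both Cohort B libraries and mostly found in 13EP5. FZD1 had 665 counts in 13EP5 and 127 in 15CP1, FMNL2 674 and 86, SCN9A 528 and 84, and RAB15 749 and 44. TUBB2B, a β-tubulin, had 308 and 228 and 0 in Cohort B. Set against 3 counts in each Cohort B library the first 4 were at least 47.2-fold (FZD1), 46.3-fold (FMNL2), 36.9-fold (SCN9A) and 49.6-fold (RAB15) higher, and all 5 had an adjusted p between 0.604 and 0.648 in edgeR's test. These bounds rest mainly on 13EP5, and without it the unadjusted p of these 4 genes lay between 0.170 and 0.310. FMNL2 had 50 counts in the shallow Cohort B library of 15CP6. In 34 of the 68 genes called higher, both Cohort B libraries were at 0.

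Genes of the other cell types were among those called higher. TCF4 was called at a log2 fold change of 3.89 with a standard error of 0.93 (edgeR, adjusted p = 0.681). PTPRS, CCDC50, UGCG and NRP1, also known from plasmacytoid dendritic cells, were called too. This made 5 of the 17 tested genes of that list called higher, beside 0.512% of all genes. The list was drawn up after the counts had been seen, so this share is no test of the group. Its sum in 15CP1, 612 CPM, lay between the Cohort B sums of 706 and 555 CPM. ITGB3 and F13A1, known from platelets but outside the platelet marker list, had 373 and 247 counts in 13EP5, 4 and 33 in 15CP1, and 0 in Cohort B. Of the platelet markers listed, 0 of 7 tested genes were called, and of the dendritic cell markers 0 of 5. The called genes named here were singled out after their values had been seen. The part of such cells in the cohort difference was not tested.

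**Figure D5:**
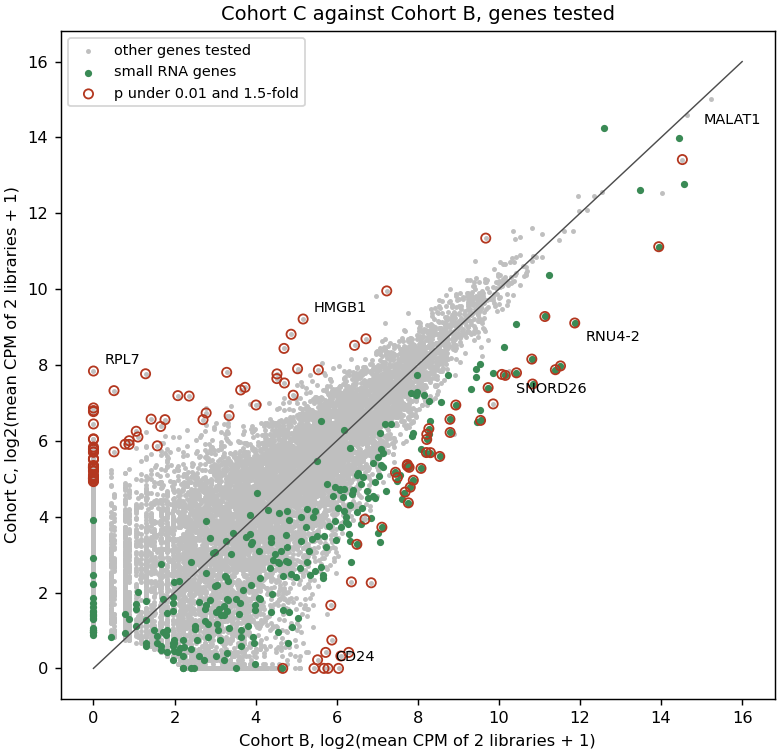
Mean CPM of the 2 Cohort B libraries (x axis) and of the 2 Cohort C libraries (y axis), both as log2(mean CPM + 1), for the 13274 genes tested, with small RNA genes in green and the 117 called genes ringed. Called genes above the diagonal often lie at or near 0 in Cohort B, as RPL7 does, and small RNA genes lie mostly below it.

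Among the genes called lower in Cohort C, small RNAs predominated. They guide the modification and splicing of other RNAs: SNORD and SNORA genes direct the methylation and pseudouridylation of ribosomal RNA, and RNU genes encode spliceosomal RNAs. SNORD26 had 859, 1424, 220 and 202 CPM. Its log2 fold change was -2.49 with a standard error of 0.45 (edgeR, adjusted p = 0.452). RNU5B-1 had 1896, 3483, 68.5 and 399 CPM, and RNU4-2 had 2545, 4943, 204 and 897 CPM. SNORD58A, SNORD87, SNORD76, SNORD61, SNORD8 and SNORA14B completed the small RNAs among the 10 smallest p. In all of them both Cohort C libraries lay below both Cohort B libraries.

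Over all small RNA genes tested, 29 of 291 were called lower, beside 0.369% of all genes, and 0 higher, and 156 were lower in both Cohort C libraries than in both Cohort B libraries, 53.6% beside 8.99% of all genes. Their median log2 fold change was -1.95, beside 0.32 over all genes, and -2.13 beside 0.17 with RLE normalization. The 2 Cohort C libraries differed widely, however. Small RNA genes took 11.1%, 14.0%, 1.68% and 10.8% of the counts. The sum of 15CP1 was carried in part by MIR7641-2, and the other small RNA genes summed to 106729, 132086, 16273 and 70108 CPM, so that both Cohort C libraries were lower, 13EP5 by far the more. The median was -1.65 without 13EP5, -3.27 without 15CP1 and -1.38 without 13EP8. MIR7641-2 ran against the group in 15CP1, with 4033, 8286, 555 and 38352 CPM. Its FPKM was listed at 0 in all 4 libraries, so this exception is uncertain. The Y RNAs RNY1 and RNY5, outside the list, were also called lower. Ribosomal RNA genes took 3.92%, 4.15%, 2.40% and 0.972% of the counts, and RNA28S5 was called lower.

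The remaining gene among the 10 was CD24, a surface protein of B cells and granulocytes, with 26, 110, 0 and 0 counts (edgeR, adjusted p = 0.648). It had 172 counts in the shallow Cohort B library of 14HP26. Several other genes called lower had nearly all their counts in a single Cohort B library, among them ALB, GJA1 and PDPN in 13EP8 with 181, 118 and 216 counts, and SERPINA7 in 13EP12 with 129. ALB encodes serum albumin and SERPINA7 the thyroxine-binding globulin, both liver proteins.

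No gene of the sort marker, receptor signaling, transcription factor, effector, coinhibitory, FOXP3 or homing receptor lists was called in either direction, beside 0.881% of all genes called. In the receptor signaling list, 7 of 22 tested genes were higher in both Cohort C libraries, 31.8% beside 30.1% of all genes, and the median log2 fold change was 0.12. Of the 28 transcription factors, 10 were so, 35.7%, with a median of 0.20. GATA3, the TH2 factor, had 13.4, 38.8, 114 and 74.6 CPM, and KLF2, which keeps T cells in circulation, 111, 81.2, 278 and 178 CPM, both without overlap of the cohorts and neither called. For CD4 the log2 fold change was 0.00 with a standard error of 0.67.

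The actin cytoskeleton list stood above the background without a call. In 12 of its 15 genes both Cohort C libraries lay above both Cohort B libraries, 80.0% beside 30.1%, and the median log2 fold change was 0.52 beside 0.32 over all genes, or 0.37 beside 0.17 with RLE. ACTB had 4176, 3720, 6604 and 4532 CPM and MYH9, the heavy chain of non-muscle myosin, 1617, 1970, 3865 and 2432 CPM. TMSB4X overlapped between the cohorts with 1556, 1770, 1639 and 1205 CPM. Without either Cohort C library in turn the median was 0.53 and 0.58.

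MHC class I genes showed the same pattern in 5 of 6 tested genes, beside 30.1% of all genes, again with 0 called. HLA-B had 115, 157, 205 and 453 CPM (log2 fold change 1.24 with a standard error of 0.56; edgeR, unadjusted p = 0.0464, adjusted p = 0.800), and HLA-C had 135, 237, 273 and 253 CPM. B2M, the light chain of class I, had 7, 14, 119 and 283 counts, few for a gene of nucleated cells. The median of the 6 was 1.79, beside 0.32 over all genes. It was 1.24 beside 0.08 with cohorts at 0 put at their bound, 1.20 beside 0.10 at equal depth, and 0.61 beside 0.11 without 15CP1. These genes vary between animals and between species, and counts on the human sequence are uncertain.

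Of 20 immediate early and activation genes, all were found in all 4 libraries and 8 were higher in both Cohort C libraries, 40.0% beside 30.1% of all genes, with a median log2 fold change of 0.42. JUN had 1505, 1434, 3420 and 1935 CPM, with 15CP1 nearer to Cohort B than to 13EP5. JUNB, its relative, had 774, 897, 1168 and 1261 CPM. Without 13EP5 the list's median was 0.17, beside 0.23 over all genes. FOS had 1026, 1513, 1144 and 1167 CPM with the cohorts overlapping.

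Among metabolic and biosynthetic lists, 15 of 35 respiratory complex I genes, 27 of 69 mitochondrial ribosomal protein genes and 25 of 58 translation factors were higher in both Cohort C libraries, 42.9%, 39.1% and 43.1% beside the 30.1% of all genes. Of these, 1 translation factor was called, EIF3F, with 12.6, 5.75, 126 and 74.8 CPM. Complex I genes were found 22, 26, 35 and 35 at a time of 37, and mitochondrial ribosomal protein genes 40, 47, 69 and 73 of 76. Part of the Cohort B values of both lists were therefore zeros. Of 43 tested genes of respiratory complexes II to V, 16 were higher in both Cohort C libraries, 37.2%, and of 34 proteasome subunits 8, 23.5%. Of 81 cytosolic ribosomal protein genes 15 were so, 18.5%, and RPL7 alone was called. Of 13 glycolytic enzymes, 0 were called, and PKM, the highest in mean log2(CPM + 1), had 204, 307, 533 and 302 CPM.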

How the data were processed

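RNA of sorted Tr1 cells was sequenced, and 10 libraries were deposited as tables with 26484 gene rows of counts. Per the labels and the study's methods, reads were checked with FastQC and mapped with HISAT2 2.0.2 to human hg38. The authors deposited whole-number counts per gene, whose counting options are not given in the sources used here, and FPKM from Cuffdiff 2.2.1. Mapping macaque reads to a human genome can lower counts where sequences differ.

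From the counts, CPM were computed per library total, and 4 libraries with at least 8000 genes found were kept. Cohorts were taken from the labels. Genes with 10 or more counts summed over the 4 libraries were tested with edgeR 4.0.16 (R 4.3.3) by the quasi-likelihood test with TMM, an unadjusted p of 0.01 and a 1.5-fold change as the study used, and Benjamini-Hochberg adjustment. The common dispersion was 1.04. The scripts were tested on simulated data. Logarithms used a pseudocount of 1. DESeq2 1.42.0, limma 3.58.1 and other filters and scalings served as alternatives.

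Named genes are the 30 highest in mean level, listed T cell genes, the 10 smallest p in each direction (also among genes with a mean of at least 10 CPM, which gave the same genes), and the 10 steadiest and 10 most variable genes. Genes named otherwise were chosen after their values were seen. The members and lists were chosen with earlier results of these data known. The 2 date-like gene names that occur more than once are not reported, and 0 per-sample columns were left unused. Some named genes are not reported here, though they stay in the counts of their lists.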

Additional observations from a re-analysis of the deposited data

Results flagged for a closer look

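In 37 gene lists and totals, the highest or lowest of the 4 libraries was compared with the others by its gap to the nearest library over the whole range against Dixon's critical value, and 3 stood apart. Chance marks about 1 in 20 such groups, so flags in a few of 37 groups can arise by chance. That rate does not hold for a list chosen after its values had been seen. All 3 flags set 13EP5 of Cohort C apart. Its monocyte markers summed to 166 CPM, the lowest of the 4 (gap over range 0.897). Its MHC class II genes summed to 3501 CPM, the highest (0.927), of which CD74 alone had 2692 CPM. Its plasmacytoid dendritic cell genes, a list chosen after the values had been seen, summed to 6904 CPM, the highest (0.976). The gaps without VCAN or CD74 were not examined.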

How the results depend on the processing

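No paired analysis was possible because the kept libraries came from different monkeys and share only 1 replicate number between the cohorts. That number belongs to 13EP12 in Cohort B and to 13EP5 in Cohort C, so it does not mark a matched pair. The alternatives for list medians, TMM-scaled CPM and the omission of small RNA genes were chosen after seeing the data. The 117 genes called became 309 with every gene of 1 or more counts, 48 with filterByExpr, 47 at a mean of 10 CPM or more, 376 with DESeq2, 298 with limma on log2(FPKM + 1) and 911 with all 10 libraries. Leaving out 1 library gave 43 (13EP5 out) to 1291 (13EP8 out), with 908 without 13EP12 and 175 without 15CP1; the lone library of a cohort was then assumed to vary like the others. The 1 gene at an adjusted p under 0.05 became 0 with RLE, filterByExpr, a mean of 10 CPM, limma-voom, thinning and all 10 libraries (649, 745, 383, 873, 511 and 2923 genes at an unadjusted p under 0.05), 79 with every gene, 5 with edgeR's exact test, 96 with DESeq2 (4890 adjusted p not given), 9 with limma on FPKM, whose larger scale in 13EP5 enters every FPKM result here, and 12 to 271 with 1 library left out. The share of calls higher in Cohort C ran from 14.0% without 13EP5 to 88.6% with FPKM, with 73.0% once small RNA genes were left out. With FPKM, the log2 fold change turned positive for SNORD87 (0.94), SNORD76 (0.45) and SNORD61 (0.071). All of these lay below the median over all genes in that setting, 1.93. With all 10 libraries it turned positive for RNU5B-1 (3.17), SNORA14B (1.05) and RNU4-2 (1.48), beside a median of 0.16 over all genes. The cause was not tested. The median of small RNA genes was -0.00 with all 10 libraries and -0.15 with FPKM, beside the same 0.16 and 1.93 over all genes. Of the 30 genes highest by CPM, 4 were among the 30 highest by FPKM over all genes, and 6 with small and ribosomal RNA genes left out of the FPKM ranking. Genes found in all libraries kept numbered 6896 to 8697 with 1 left out. Of 331 values of the 20 named genes, 285 kept direction and side, 40 no longer passed and 6 reversed. The depth of 13EP12 limits what can be seen to 2.52 CPM.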
